A study of Mus musculus with 12 samples.

Results

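The dependence of the OxLDL response on genotype was examined in bone marrow-derived macrophages (BMDMs), which are matured in culture from marrow precursors. Donor mice were WT controls or carried the R150X allele of Gpnmb (GpnmbR150X, here R150X), and part of the cells of each genotype received oxidised low-density lipoprotein (OxLDL). This gave 4 groups of 3 RNA-seq libraries: untreated WT, OxLDL-treated WT, untreated R150X and OxLDL-treated R150X, and all 12 libraries of the series entered. Both genotypes were labelled with the same strain background, DBA/2 crossed with C57BL/6 and then backcrossed to C57BL/6. R150X is known as the spontaneous nonsense allele of the DBA/2J strain, a germline change carried by every cell of the mouse. The number of backcrosses was not labelled, so the allele and DBA/2 sequence linked to it cannot be told apart. The quantity tested for each gene was the interaction, the log2 fold change with OxLDL in R150X cells minus that in WT cells. It was tested in all 15338 genes that passed a filter on low counts, of 54532 listed. Dose, time of exposure and batch are not in the labels, nor is a statement of whether a group's 3 libraries came from separate mice, cultures or pools, so every p-value measures only the spread between these libraries, which may be technical.

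Macrophages take up modified lipoproteins through scavenger receptors, hydrolyse the lipid in lysosomes, store it in droplets and export cholesterol through transporters controlled by the sterol-sensing nuclear receptors LXR. Lipid-filled macrophages are called foam cells and are a hallmark of the atherosclerotic plaque. GPNMB is a type I transmembrane glycoprotein of lysosomes and the cell surface that lipid-laden and damage-associated macrophages make in large amounts, and R150X names a stop at arginine codon 150 of its coding sequence. In the GENCODE transcript of Gpnmb, codon 150 lies on chromosome 6 of GRCm38 from 49045385 to 49045387 on the plus strand. The reference sequence there, with the arginine codon in capitals and 30 bases on each side, is shown because it is the site that separates the genotypes.
Gpnmb codon 150: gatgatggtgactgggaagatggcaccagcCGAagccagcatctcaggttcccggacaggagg

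Library totals ran from 14838969 to 18222868 counts, and 3 counts, taken as the floor of detection, corresponded to 0.158 to 0.209 CPM, the count scaled to library size. Replicate 1 of untreated R150X stood apart: its chi-square against replicates 2 and 3, divided by the degrees of freedom, was 9.23 and 10.1, and the other replicate pairs gave 2.31 to 4.76. Markers of the labelled cell type were abundant. The 20 macrophage identity genes summed to 23800 to 24000 CPM in untreated WT, 28300 to 29800 in OxLDL-treated WT, 25400 to 26900 in untreated R150X and 24000 to 25000 in OxLDL-treated R150X libraries. The sex of the mice was not labelled. Xist, the RNA that coats the inactive X chromosome, lay at 0 to 2.75 CPM in the WT groups and 228 to 349 CPM in the R150X groups, and all 4 Y-linked genes measured (Ddx3y, Eif2s3y, Kdm5d and Uty) were lower in R150X in both treatment states. In each R150X library, Xist and the Y-linked genes together exceeded Xist alone, as at 359 against 228 CPM in replicate 1 of untreated R150X. Each R150X library thus held both Xist and Y-linked RNA. Whether these libraries held pooled cells of both sexes was not tested. A difference in sex composition and a difference in genotype cannot be told apart for the genotype comparisons. Of the genes on the X chromosome, 40 of 497 were called for the interaction, and none of 7 on the Y chromosome was. The share called over all genes tested was 8.32%. With genes of both chromosomes dropped after the fit and p-values adjusted again, 1237 genes were called. The fit itself still included them.

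The OxLDL response differed between genotypes for 1276 genes, 8.32% of those tested, at a Benjamini-Hochberg adjusted p under 0.05 in edgeR's quasi-likelihood test. The interaction was higher for 480 genes (3.13%) and lower for 796 (5.19%). The median over all genes tested was -0.017. Only 126 of the called genes, 63 in each direction, differed by at least 2-fold, and the median size was 0.51 on the log2 scale among the higher and 0.40 among the lower genes. The split between directions depended on the scaling: with library size alone, without the trimmed-mean factors, 878 genes were higher and 442 lower, and 922 of the 1276 genes were called again. Without replicate 1 of untreated R150X, the library that stood apart, 1246 genes were called.

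Most of the called differences were differences of degree within a shared direction, or a response called in WT alone. OxLDL changed 7025 genes in WT (45.8% of those tested) and 5983 in R150X (39.0%). These shares count rises and falls together and stand beside each later count of list members that rose or fell. The responses in WT and in R150X are both terms of the interaction. The following classes thus describe what each difference was made of and are not separate evidence for it. Words such as less, more and further compare log2 fold changes throughout. On the CPM scale the interaction had the opposite sign for 4 of the 480 higher and 26 of the 796 lower genes. Among the 796 lower genes, 257 rose in both genotypes and rose less in R150X, 213 rose in WT alone, 153 fell in both and fell further in R150X, 114 fell in R150X alone, 56 rose in WT and fell in R150X, and 3 were called in neither. Among the 480 higher genes, 172 fell in WT alone, 171 fell in both and fell less in R150X, 68 rose in R150X alone, 44 fell in WT and rose in R150X, 23 rose in both and rose more in R150X, and 2 were called in neither. In all, 100 genes responded in opposite directions.

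**Figure D1:**
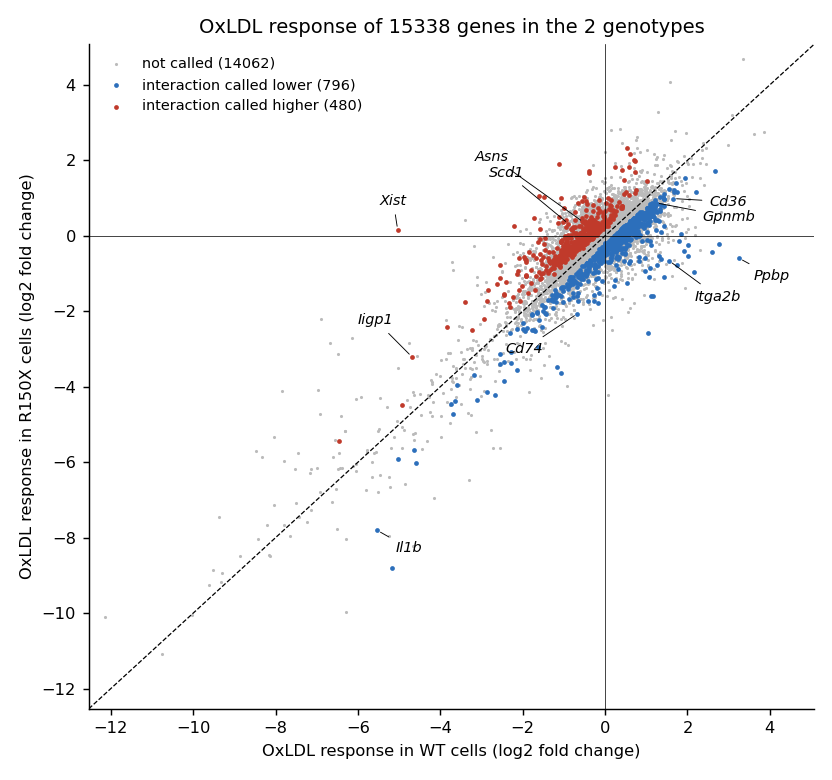
Log2 fold change with OxLDL in WT cells (x axis) and in R150X cells (y axis) for each of the 15338 genes tested; the dashed line marks equal responses, and 480 red and 796 blue genes had a higher or lower interaction. Most coloured genes lie in the quadrants of shared direction or near an axis, with Ppbp and Itga2b among those in the lower right quadrant and Scd1 and Asns in the upper left.

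Fewer genes differed between the genotypes with OxLDL than without it. R150X differed from WT for 5056 genes in untreated cells (33.0% of those tested) and for 1996 in OxLDL-treated cells (13.0%). Both genotype differences are also terms of the interaction, so the values below describe the called genes and are not separate evidence for it. The lower genes had a median log2 difference of R150X from WT of 0.361 in untreated and -0.0587 in OxLDL-treated cells. Of these 796, 627 were higher in untreated R150X than in untreated WT cells, against 2780 of all 15338 genes tested. For the higher genes the medians were -0.357 and 0.153. Of these 480, 342 were lower in untreated R150X cells, against 2276 of all genes tested. The size of the genotype difference was smaller with OxLDL for 913 of the 1276 called genes (71.6%), against 62.7% of all genes tested.

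Gpnmb itself, the mutated gene (ENSMUSG00000029816, chromosome 6 from 49036546 to 49070929), held 5374, 5311 and 5306 CPM in the untreated WT libraries and 12552, 12355 and 12615 CPM with OxLDL. Untreated R150X libraries held 363, 382 and 411 CPM and OxLDL-treated ones 704, 691 and 724 CPM, so every R150X library lay below every WT library. Its transcript still rose with OxLDL in R150X, by 0.87 on the log2 scale against 1.23 in WT, and the interaction was -0.36 (SE 0.0535, adjusted p = 0.000152, edgeR).

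Lipid-associated macrophage genes, a set shared by foam cells and the TREM2-positive macrophages of fat and plaque, were the list with the largest share of called members. Of 21 genes tested, 20 had a lower interaction and none a higher one, with a median of -0.451 beside -0.017 over all genes. The share of all genes to set beside this and each later list count is 8.32%, with 3.13% higher and 5.19% lower. All 21 rose with OxLDL in WT; in R150X 16 rose, 1 fell and 4 were not called. The list held 16 lower members with library size alone and 18 to 20 when 1 library was left out. R150X started higher: 19 of the 21 were higher in R150X than in WT without OxLDL, against 10 higher and 3 lower with it. Over all 15338 genes tested, 2780 were higher in R150X without OxLDL and 935 with it. The higher start was not particular to this list. It was seen for 30 of 32 nuclear respiratory chain genes and 24 of 32 cytosolic ribosomal protein genes, with 2 higher in each list under OxLDL.

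Lpl, the lipoprotein lipase that releases fatty acids from lipoproteins, held 4107, 3944 and 3890.3 CPM in untreated WT and 8322, 8252 and 7911 CPM in OxLDL-treated WT libraries. It held 6149.9, 6419 and 6299 CPM in untreated R150X and 9159, 9332 and 9239 CPM in OxLDL-treated R150X libraries, and none of the 4 groups overlapped. Its log2 rise was 1.04 in WT and 0.56 in R150X, with an interaction of -0.48 (SE 0.045, adjusted p = 7.19e-07, edgeR).

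Clec7a, the beta-glucan receptor dectin-1, rose in WT alone. Its libraries read 276, 270.1 and 262 CPM untreated and 486, 448 and 432 CPM with OxLDL in WT, and 524, 539 and 526 CPM untreated and 577, 551 and 535 CPM with OxLDL in R150X. The R150X groups overlapped, while every treated WT library lay above every untreated WT one and below every R150X library. Its interaction was -0.69 (SE 0.0683, adjusted p = 1.59e-06, edgeR).

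Spp1 and Apoe, a secreted phosphoprotein and the apolipoprotein that accepts exported cholesterol, had another shape. Spp1 rose from 8330.2 ± 75.1 to 11780 ± 683 CPM in WT (SD, n = 3) and measured 6081 ± 188 and 6289 ± 313 CPM in R150X, where its response was not called. Apoe rose from 9153 ± 483 to 17707 ± 1158 CPM in WT and from 9806 ± 1362 to 13323 ± 1205 CPM in R150X. With OxLDL, R150X was lower than WT for both genes; without it, R150X was lower for Spp1 and not called for Apoe. The receptor Trem2 rose by 1.03 in WT and 0.68 in R150X (interaction -0.36), and Lgals3, the galectin of activated macrophages, by 1.26 and 0.63 (interaction -0.62). Lgals1 was the member without a call (-0.031, adjusted p = 0.857, edgeR).

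Mmp12, the macrophage elastase, rose from 1622 ± 15.5 to 3523 ± 215 CPM in WT and rose from 3244 ± 58.0 to 4629 ± 289 CPM in R150X (interaction -0.61, SE 0.0635, adjusted p = 2.71e-06, edgeR). One of its start sites in RefSeq, downstream of the GENCODE gene start, has a match to the AP-1 element (TGANTCA, searched on both strands) 44 bases upstream, while the other start has no match in its 250 upstream bases. It is shown because Mmp12 was among the most clearly dampened of these genes, with the match in capitals, from chr9:7347224-7347373 on the plus strand of GRCm38.
Mmp12 promoter: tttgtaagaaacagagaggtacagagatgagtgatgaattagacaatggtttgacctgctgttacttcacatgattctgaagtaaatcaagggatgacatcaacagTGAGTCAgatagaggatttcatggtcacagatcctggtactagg
The AP-1 letters stood in 4 of the 15 lipid-associated genes that the RefSeq table holds and in 7.82% of its 27025 genes.

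**Figure D2:**
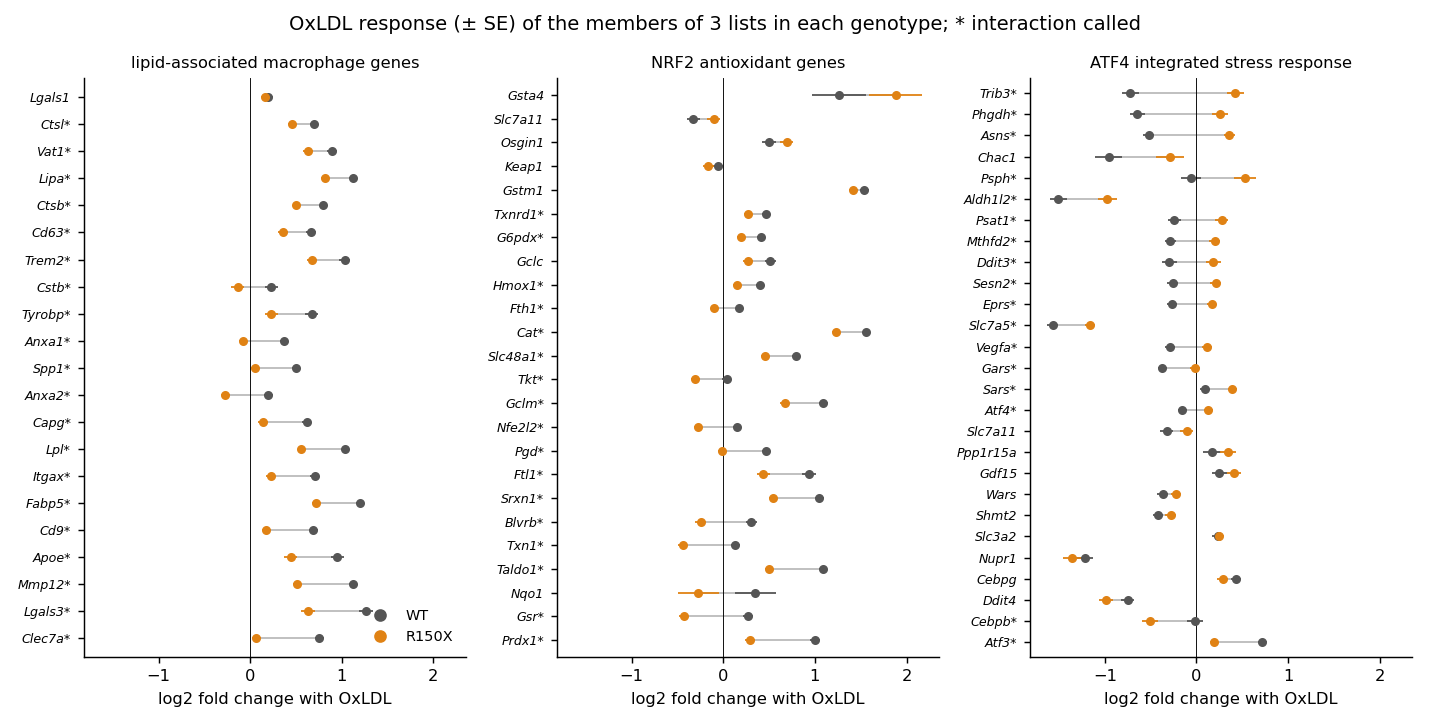
Log2 fold change with OxLDL (x axis, ± SE) in WT (grey) and R150X (orange) for every tested member of 3 lists, ordered by the interaction, with an asterisk where it was called. The orange points lie to the left of the grey ones for all 21 lipid-associated genes and for most of the 24 NRF2 genes, and to the right for most of the 27 ATF4 genes, of which 15 were called higher.

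Among PPAR and LXR targets, lower calls outnumbered higher ones. Of 19 PPAR targets and lipid droplet genes, 9 were lower and 2 higher (median -0.25). Some genes belong to several lists, as Lpl does to this one and the lipid-associated one. The counts of different lists are thus not separate results. Plin2, which coats lipid droplets, read 392, 403 and 389 CPM in untreated WT, 1298, 1253 and 1235 CPM in treated WT, 634, 614 and 624 CPM in untreated R150X and 1432, 1433 and 1349 CPM in treated R150X libraries. It rose in both genotypes, from a higher start in R150X and to a treated level with only a small gap between genotypes (interaction -0.51, SE 0.0567, adjusted p = 6.44e-06, edgeR). Fabp5, a cytosolic fatty acid carrier, rose by 1.20 in WT and 0.72 in R150X on the log2 scale.

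The higher members were G0s2 and Dgat2. G0s2, an inhibitor of the droplet lipase ATGL, held 1.18 ± 0.528 and 1.70 ± 0.218 CPM in WT without and with OxLDL and 1.08 ± 0.365 and 5.33 ± 1.06 CPM in R150X. Its interaction of 1.78 lost its call without replicate 1 of untreated WT (adjusted p = 0.0729, edgeR), and 1 of the 2 higher members then remained. Dgat2, a triglyceride-synthesis enzyme, fell in both genotypes and fell less in R150X (interaction 0.92, adjusted p = 0.0146).

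Among 14 scavenger receptors, 4 were lower and 1 higher, with a median of -0.0984. Cd36, the main receptor for OxLDL on macrophages, read 1400.1, 1424 and 1364 CPM in untreated WT and 4633, 4442 and 4054 CPM in treated WT libraries. In R150X it read 2667, 2874 and 2698 CPM untreated and 5642, 5541 and 5151 CPM treated, so R150X was higher in each state and its rise was smaller, 0.99 against 1.65 on the log2 scale (interaction SE 0.0652, adjusted p = 1.58e-06, edgeR). Cxcl16, a transmembrane chemokine that also binds oxidised lipoprotein, fell from 133 ± 1.82 to 77.3 ± 2.37 CPM in WT and from 123 ± 4.58 to 40.1 ± 0.893 CPM in R150X (interaction -0.84); the gene overlaps Zmynd15, and since the strand setting of the counting was not given, its reads cannot be told apart from those of that gene. Stab1 was the member with a higher interaction (0.28), and its call was lost on leaving out any 1 of the untreated WT or OxLDL-treated R150X libraries or replicate 1 or 2 of OxLDL-treated WT. Scarb2, the lysosomal receptor LIMP-2 (-0.27), kept its call in each leave-one-out fit and lost it with library size alone (adjusted p = 0.0789).

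For LXR targets and cholesterol efflux, 6 of 14 genes were lower and 1 was higher (median -0.24). Abcg1, an exporter of cholesterol to high-density lipoprotein, rose from 264 ± 7.03 to 477 ± 12.7 CPM in WT and from 329.5 ± 13.3 to 457 ± 10.7 CPM in R150X (interaction -0.38). Mylip, a sterol-induced ubiquitin ligase, rose by 1.19 and 0.74 on the log2 scale (interaction -0.45). Abca1, the partner exporter, did not pass (interaction -0.22, adjusted p = 0.162, edgeR).

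Scd1, the stearoyl-CoA desaturase that makes monounsaturated fatty acids and is an LXR target, moved in opposite directions. It read 42.4, 42.0 and 41.2 CPM in untreated WT and 24.1, 22.7 and 20.9 CPM in treated WT libraries, a fall, and 48.0, 53.3 and 54.8 CPM in untreated R150X and 65.1, 63.2 and 66.9 CPM in treated R150X libraries, a rise. None of the 4 groups overlapped, and the treated cells were furthest apart. The interaction was 1.21 (SE 0.0929, adjusted p = 7.79e-08, edgeR). Its relative Scd2 fell in both genotypes (-0.86 and -1.07) and did not pass for the interaction.

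Cholesterol biosynthesis, the pathway that sterol loading shuts off, fell in both genotypes: 19 of 23 genes fell in WT and 21 in R150X. Of these 23, 4 had a lower interaction and none a higher one (median -0.207), and the count was 1 or 2 without replicate 1 or 2 of untreated WT, of OxLDL-treated WT or of OxLDL-treated R150X, and 2 with library size alone. Cyp51, lanosterol demethylase, had the smallest adjusted p (-0.39, 0.00938) and fell further in R150X, and it overlaps Akap9. In fatty acid synthesis 2 of 12 genes were lower, Mid1ip1 (-0.57) and Acss2 (-0.91), an acetyl-CoA synthetase gene that overlaps Gss, a gene at 18.9 CPM; 1 gene was called higher without replicate 3 of untreated WT or replicate 1 of OxLDL-treated WT. In beta-oxidation 3 of 20 were lower (median -0.18): Acaa1a, Etfa and Echs1. Acaa1a overlaps Myd88, at 71.9 CPM, and Echs1 overlaps Paox, at 26.9 CPM, and with the counting strand not given the reads of such pairs cannot be told apart. The count was 1 without replicate 3 of untreated WT, replicate 2 of OxLDL-treated WT or replicate 2 of OxLDL-treated R150X, and 1 with library size alone. Etfa also lost its call without replicate 3 of OxLDL-treated R150X, and Echs1 without replicates 1 or 2 of untreated WT, replicate 1 of OxLDL-treated WT, of untreated R150X or of OxLDL-treated R150X.

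In the lysosome and CLEAR network, the TFEB-controlled genes of lysosomal hydrolases and the proton pump, 15 of 41 genes were lower and none higher (median -0.181). Of the 41 members, 36 rose in WT and 29 in R150X. Over all genes tested, 45.8% in WT and 39.0% in R150X changed in either direction. With library size alone, 10 were lower and 1 was higher. Psap, the precursor of the saposins that activate sphingolipid hydrolases, read 8637, 8587 and 8689 CPM in untreated WT, 18574, 18506 and 18704 in treated WT, 13423, 12530 and 12248 in untreated R150X and 20279, 20576 and 20637 in treated R150X libraries. R150X cells thus began higher and ended slightly higher (interaction -0.42, SE 0.0427, adjusted p = 2.09e-06, edgeR). Ctss, the cathepsin that trims the MHC class II invariant chain, rose in WT from 3549 ± 58.9 to 5228 ± 250.2 CPM and was not called in R150X, where it measured 5016 ± 353 and 4697 ± 45.4 CPM (interaction -0.65). Atp6v1b2, a subunit of the proton pump, rose by 0.79 in WT and 0.34 in R150X, and Tfeb itself by 0.73 and 0.33 (interaction -0.40, adjusted p = 0.0413). Lamp1 and Npc1, a membrane protein and the cholesterol exporter of the lysosome, rose in both genotypes and did not pass for the interaction (-0.10 and 0.098).

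Housekeeping lists gave a reference for such medians. The interaction had a median of -0.221 over 32 nuclear respiratory chain genes with 3 called lower, -0.175 over 32 cytosolic ribosomal protein genes with 1 called lower, and -0.187 over 12 mitochondrially encoded mRNAs with 1 called lower, and no member of these lists was called higher. These small numbers of calls moved with the filter and the libraries. Without a filter on low counts, 10 respiratory, 9 ribosomal and 4 mitochondrial genes were lower. The respiratory count was 1 without replicate 2 of untreated WT, replicate 1 of OxLDL-treated WT or replicate 2 of OxLDL-treated R150X, and 8, 6 and 5 without replicate 2 or 3 of untreated R150X or replicate 3 of OxLDL-treated R150X. The ribosomal count was 6 without replicate 2 of untreated R150X, 2 without replicate 3 of OxLDL-treated R150X and 0 without replicate 3 of OxLDL-treated WT, and the mitochondrial count was 7 without replicate 3 of OxLDL-treated WT, 2 without replicate 1 of OxLDL-treated R150X, and 0 without replicate 3 of untreated WT, replicate 1 of OxLDL-treated WT, replicate 2 of untreated R150X or replicates 2 or 3 of OxLDL-treated R150X. With all libraries, the medians of the lysosomal, PPAR, LXR and beta-oxidation lists were thus near those of the housekeeping lists, and the lipid-associated median lay further from 0 than any of them. Without replicate 1 of untreated R150X, the respiratory, ribosomal and mitochondrial medians were -0.135, -0.0749 and -0.175. The lysosomal, PPAR, LXR and beta-oxidation medians were then -0.171, -0.198, -0.218 and -0.141, so the nearness depended in part on that library.

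NRF2 antioxidant genes, which NRF2 switches on through antioxidant response elements when KEAP1 is oxidised, followed the lipid-associated genes. Of 24 tested, 17 were lower and none higher (median -0.34), with 14 lower with library size alone and 15 to 17 in the leave-one-out fits. Untreated R150X cells had higher levels of 21 of the 24 than untreated WT cells, and treated R150X cells had higher levels of 5 and lower levels of 3. The respiratory chain and ribosomal lists shared this higher untreated level. Prdx1, a peroxiredoxin that reduces peroxides, read 2044, 2029 and 1935 CPM in untreated WT and 4303, 4064 and 3663 CPM in treated WT libraries. It read 3436, 3105 and 3074 CPM in untreated R150X and 4118, 4009 and 3668 CPM in treated R150X libraries, so the treated groups of the 2 genotypes overlapped and the untreated ones did not. The interaction was -0.71 (SE 0.0769, adjusted p = 4.37e-06, edgeR).

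Gsr, glutathione reductase, went further and changed direction. Its WT libraries read 144, 147 and 154 CPM untreated and 182, 176 and 178 CPM with OxLDL, and its R150X libraries 193, 184 and 169.8 CPM untreated and 134, 138 and 132 CPM with OxLDL. It rose in WT and fell in R150X (interaction -0.70, SE 0.0728, adjusted p = 2.57e-06, edgeR). Txn1, thioredoxin, and Blvrb, biliverdin reductase B, also rose in WT and fell in R150X, as did Nfe2l2, the gene for NRF2 itself (0.15 and -0.28, interaction -0.43). Taldo1, transaldolase of the pentose phosphate pathway, rose in both genotypes, by 1.09 and 0.50. Hmox1, heme oxygenase 1, rose by 0.40 in WT and 0.15 in R150X, and Gclm, the regulatory subunit of glutathione synthesis, by 1.09 and 0.67. Keap1, Gclc, Nqo1, Gstm1, Osgin1, Slc7a11 and Gsta4 did not pass.

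The Prdx1 promoter is shown because this list is defined by a binding site. The antioxidant element was searched as TGACNNNGC on both strands of the 250 bases upstream of each start. It was present in 5 of 19 list members found in the RefSeq table, against 11.5% of all genes there. It was no rarer in the lysosome and CLEAR network, at 9 of 30 genes, so it did not set the NRF2 list apart. In Prdx1 the match begins 133 bases upstream and overlaps a match to the AP-1 letters that begins 131 bases upstream; the capitals mark the joined run. Another AP-1 match lies 237 bases upstream, outside the stretch shown. The stretch is chr4:116685449-116685543 on the plus strand of GRCm38, up to the GENCODE gene start.
Prdx1 promoter: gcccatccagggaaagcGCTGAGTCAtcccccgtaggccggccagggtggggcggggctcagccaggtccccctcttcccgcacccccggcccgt

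Targets of ATF4, the transcription factor of the integrated stress response that induces amino acid synthesis and transfer RNA charging, moved the other way. Of 27 tested, 15 were higher and 2 lower (median 0.356). OxLDL lowered 19 of the 27 in WT and raised 4, while in R150X it lowered 7 and raised 15. The higher count was 16 with library size alone and 13 to 16 in the leave-one-out fits. In untreated cells 15 of the 27 were lower in R150X than in WT and 7 higher; with OxLDL 3 were lower and 15 higher.

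Asns, asparagine synthetase, read 61.2, 63.8 and 62.2 CPM in untreated WT and 46.1, 43.1 and 41.2 CPM in treated WT libraries. In R150X the order was reversed, at 48.7, 45.0 and 46.6 CPM untreated and 61.0, 60.2 and 58.6 CPM treated. The untreated WT libraries were highest, just above the treated R150X ones, and the treated WT and untreated R150X libraries overlapped at the low end. The interaction was 0.88 (SE 0.0809, adjusted p = 6.07e-07, edgeR). Trib3, a pseudokinase that feeds back on ATF4, did the same, at 28.7, 24.4 and 26.5 CPM and then 18.2, 14.9 and 15.0 CPM in WT, and 19.6, 20.2 and 21.0 CPM and then 25.7, 26.4 and 29.5 CPM in R150X (interaction 1.15, SE 0.13, adjusted p = 7e-06).

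The serine pathway moved with them: Phgdh, Psat1 and Psph, its 3 enzymes in order, had interactions of 0.90, 0.52 and 0.59. Phgdh and Psat1 fell in WT and rose in R150X, and Psph rose in R150X alone. Mthfd2 of mitochondrial one-carbon metabolism (0.48), the stress sensor Sesn2 (0.47) and the charging enzyme Eprs (0.43) also fell in WT and rose in R150X. Atf4 itself fell by 0.15 (log2) in WT and rose by 0.13 in R150X (interaction 0.28, adjusted p = 0.0133, edgeR). Slc7a5, the large neutral amino acid transporter, and Aldh1l2 fell in both genotypes and fell less in R150X. Among the 10 that did not pass were Chac1 (0.67, adjusted p = 0.0574), Ddit4 and Nupr1.

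The members with a lower interaction were Atf3 and Cebpb, stress-induced transcription factors that inflammatory signals also induce. Atf3 rose from 255 ± 3.49 to 419 ± 4.39 CPM in WT and from 376 ± 17.2 to 429 ± 13.8 CPM in R150X (interaction -0.53, SE 0.0641, adjusted p = 1.61e-05, edgeR). Cebpb fell in R150X alone (-0.49, adjusted p = 0.017). The lower count was 1 without replicate 1 of untreated WT or replicate 3 of OxLDL-treated WT.

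The ATF4 element, searched as TGATGNAA on both strands, stood upstream of 6 of the 24 list members found in the RefSeq table, against 3.91% of all genes there. Of the 15 called members in that table, 3 held it. Asns and Atf3 are shown because each holds a match and their interactions had opposite signs. The Asns match lies 23 bases upstream of the RefSeq start, in a stretch that GENCODE annotates as exon, so only a 30-base stretch around it is printed, chr6:7693214-7693243 on the minus strand of GRCm38. The Atf3 stretch is chr1:191183341-191183483 on the minus strand, with the match 110 bases upstream in the reverse orientation.
Asns site: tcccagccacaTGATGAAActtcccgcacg
Atf3 promoter: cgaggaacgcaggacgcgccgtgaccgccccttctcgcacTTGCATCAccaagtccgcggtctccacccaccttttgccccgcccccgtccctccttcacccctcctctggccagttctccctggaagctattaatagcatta

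The ER, glycolysis and cell cycle lists had 4.35%, 7.69% and 6.25% of members called, near the 8.32% of all genes tested. Of 23 ER chaperone and ERAD genes, 1 was higher, Sel1l (0.22, adjusted p = 0.0461, edgeR), a call lost on leaving out any 1 of the WT or OxLDL-treated R150X libraries, and 1 was lower without replicate 2 or 3 of untreated R150X or replicate 3 of OxLDL-treated R150X. Of 26 glycolysis and hypoxia genes 1 was higher, Ero1l (0.50), and 1 lower, Pkm (-0.20), which overlaps Gm49759 at 82.0 CPM; the Pkm call was lost with library size alone and on leaving out any 1 untreated WT library, replicate 3 of OxLDL-treated WT or replicate 1 or 2 of OxLDL-treated R150X, and 3 genes of the list were lower without replicate 2 of untreated R150X. Of 32 cell cycle genes, 29 of which fell in each genotype, 1 was higher, Mki67 (0.61), and 1 lower, Pcna (-0.39).

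Among genes of macrophage identity the interaction was mostly lower. Of 20 tested, 13 were lower and 1, Mrc1, was higher (median -0.353), with 10 lower and 1 higher with library size alone. In WT 8 of the 20 rose with OxLDL and 9 fell, and in R150X 6 rose and 12 fell. Csf1r, the receptor for the macrophage growth factor CSF1, read 1207, 1173 and 1201 CPM in untreated WT and 1229, 1222 and 1251 CPM in treated WT libraries. In R150X it read 1378, 1405 and 1442 CPM untreated and 1018, 1028 and 1050.1 CPM treated, so it fell in R150X alone, to below every WT library (interaction -0.50, SE 0.0518, adjusted p = 2.63e-06, edgeR). It overlaps Hmgxb3, a gene at 36.4 CPM. Itgam, the integrin CD11b, likewise fell in R150X alone (-0.44), and Spi1, the lineage factor PU.1, fell in both genotypes and further in R150X (-0.32). Lyz2, lysozyme M, rose by 0.50 in WT and 0.12 in R150X, and Cd68, a lysosomal macrophage marker, by 0.79 and 0.57. Adgre1, the F4/80 antigen, fell steeply in both genotypes (-1.71 and -1.85) and did not pass for the interaction (-0.13, adjusted p = 0.15). In bulk libraries such as these, fewer cells of a type and less RNA per cell cannot be told apart.

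The subunits of complement C1q, which macrophages make, separated by genotype under OxLDL. C1qb read 1140.0, 1064 and 1128 CPM in untreated WT and 1390.5, 1348 and 1449.6 CPM in treated WT libraries, a rise, and 1327, 1084 and 1131 CPM in untreated R150X and 943, 971 and 1051 CPM in treated R150X libraries, a fall (interaction -0.59, SE 0.0847, adjusted p = 0.000108, edgeR). C1qc rose in WT alone (-0.49) and C1qa fell in both and further in R150X (-0.55). Of 15 complement and acute-phase genes, 6 were lower and 1 higher. The higher member was C4b, which fell from 8.78 ± 0.662 to 6.38 ± 0.881 CPM in WT and rose from 12.3 ± 0.989 to 17.7 ± 1.01 CPM in R150X (interaction 0.98); without replicate 1 of untreated R150X, 2 were higher. C5ar1, the receptor of the anaphylatoxin C5a, rose in WT alone (-0.52).

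MHC class II presentation had the lowest median of the pathway lists, -0.719, with 5 of 11 genes lower and none higher. Cd74, the invariant chain, read 149, 139 and 146 CPM in untreated WT and 91.5, 86.8 and 94.4 CPM in treated WT libraries. It read 356, 318 and 306 CPM in untreated R150X, above every WT library, and 75.0, 83.6 and 75.5 CPM in treated R150X libraries, all below the treated WT ones. The interaction was -1.39 (SE 0.0868, adjusted p = 2.03e-09, edgeR). The class II chains H2-Eb1 (-1.45), H2-Aa (-1.33) and H2-Ab1 (-1.19) had interactions of like size, with R150X above WT when untreated and below it with OxLDL; these are members of a multigene family and uncertain where reads are shared. H2-DMa rose in WT alone (-0.72). Their transactivator Ciita was low, fell in R150X alone and did not pass (-0.88, adjusted p = 0.0877), and the costimulatory Cd86, Cd80 and Cd40 did not pass. Markers of dendritic cells, the other main class II cell type, summed to 275 to 285, 334 to 344, 305 to 314 and 322 to 341 CPM in untreated WT, treated WT, untreated R150X and treated R150X libraries, and their part in the class II result was not tested.

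**Figure D3:**
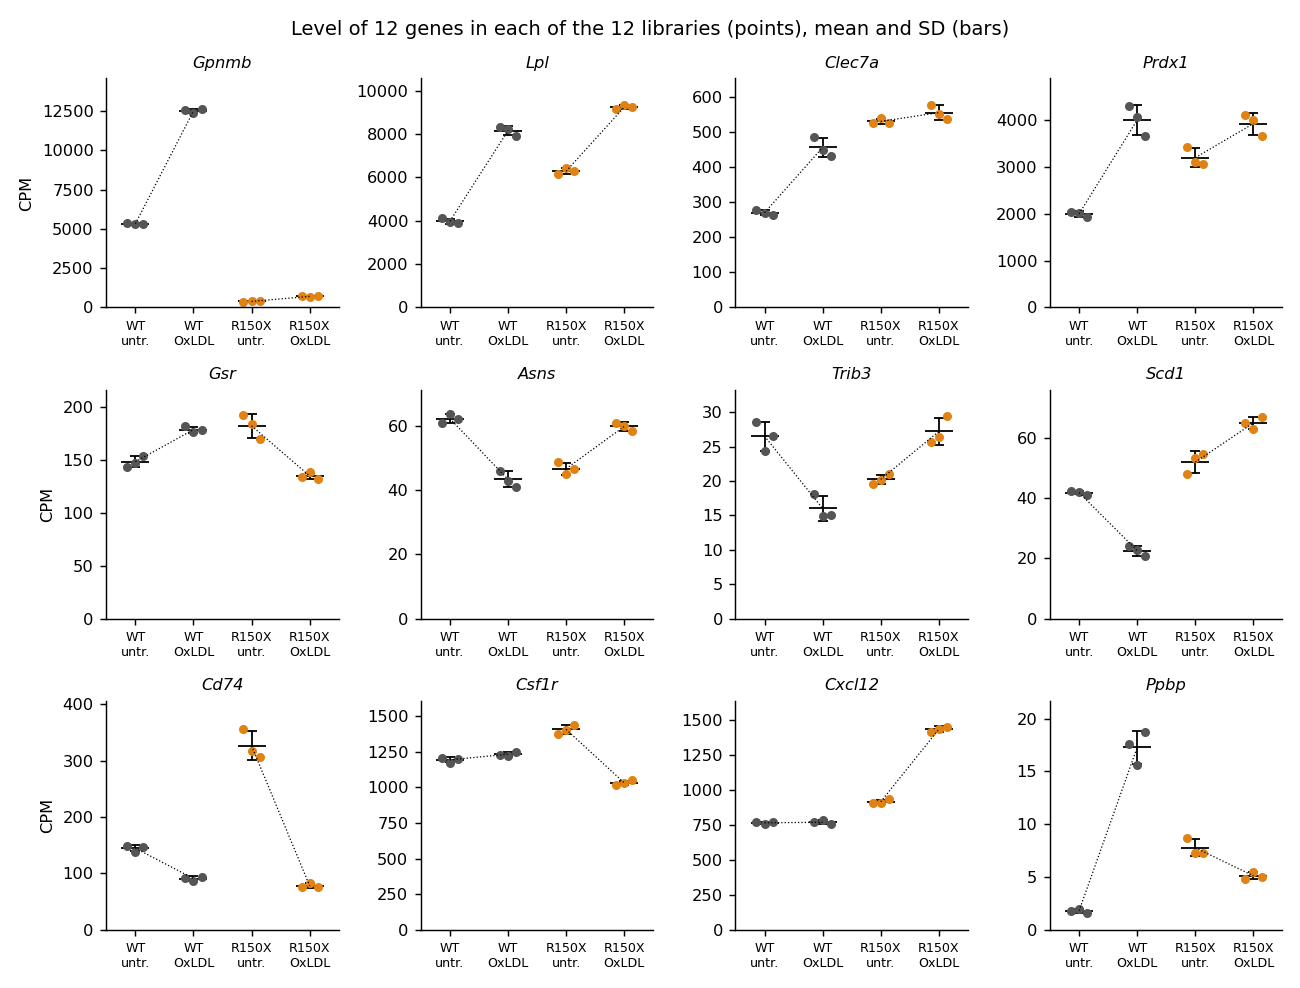
CPM of 12 genes (y axes, each from 0) in the 3 libraries of each group (points), with mean and SD (bars) and dotted lines joining untreated and OxLDL-treated means within a genotype, WT in grey and R150X in orange. The dotted lines slope the same way with unequal steepness for Gpnmb, Lpl, Prdx1 and Cd74 and in opposite ways for Gsr, Asns, Trib3, Scd1 and Ppbp.

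Inflammatory genes fell with OxLDL in both genotypes, and the interaction picked out a minority of them. Of 29 cytokine, chemokine and NF-kB genes, 27 fell in WT and 27 in R150X; 6 were lower and 1 higher (median -0.199), with 4 lower and 2 higher with library size alone. Il1b, the interleukin 1 beta gene, read 119, 112 and 117 CPM in untreated WT and 2.76, 2.45 and 2.29 CPM in treated WT libraries. In R150X it read 255, 239 and 239.8 CPM untreated and 1.69, 0.801 and 0.791 CPM treated. It began higher in R150X and ended lower, with 113 counts over the treated WT libraries and 54 over the treated R150X ones (interaction -2.28, SE 0.232, adjusted p = 2.09e-06, edgeR). Il1rn, the antagonist of the interleukin 1 receptor, fell in WT, from libraries at 112, 113 and 105 CPM to libraries at 87.0, 82.4 and 76.1 CPM, and measured 133 ± 2.23 and 138 ± 2.96 CPM in R150X (interaction 0.48). Icam1, an adhesion receptor for leukocytes, fell in both and further in R150X (-0.47), as did the monocyte chemokines Ccl2 (-0.58) and Ccl7 (-0.46). Tnf fell by 3.23 in WT and 3.52 in R150X on the log2 scale and did not pass for the interaction.

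The interferon response was the list with the deepest fall. All 38 genes fell in each genotype, with median log2 changes of -3.63 in WT and -3.36 in R150X, and 3 had a higher and 3 a lower interaction, 15.8% of the list against 8.32% of all genes (median -0.0047, a sign that turned with the scaling). Iigp1, an immunity-related GTPase, read 50.2, 47.3 and 44.2 CPM in untreated WT, 2.38, 1.36 and 1.67 CPM in treated WT, 56.1, 63.2 and 60.8 CPM in untreated R150X and 5.90, 7.61 and 5.97 CPM in treated R150X libraries. Its log2 change was -4.69 in WT and -3.21 in R150X, a smaller fall in R150X (interaction 1.49, SE 0.2, adjusted p = 4.92e-05, edgeR). On the CPM scale it fell further in R150X (interaction -8.16 CPM). It belongs to a family of similar genes, as does Ifit3, another higher member (1.03), at 1.11 ± 0.195 CPM in treated WT and 2.35 ± 0.768 CPM in treated R150X libraries. The third was the transcription factor Irf7 (0.46, adjusted p = 0.0391). Gbp2 (-0.75), Irf1 (-0.68) and Parp14 (-0.31) fell further in R150X. Only 1 gene was higher with limma-voom, without replicate 3 of OxLDL-treated WT or without replicate 1 of OxLDL-treated R150X. The interferon core element, GAAANNGAA, stood upstream of 17 of 28 list members in the RefSeq table against 8.18% of all genes.

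Lipid mediators and immediate-early genes were mixed. Of 16 eicosanoid genes 5 were lower, among them Alox5ap, the 5-lipoxygenase activating protein (1.08 in WT and 0.40 in R150X), Pla2g7, the lipoprotein-associated phospholipase (0.78 and 0.28), and Ptger4, a prostaglandin E2 receptor that fell in both and overlaps Ttc33, a gene at 24.0 CPM; 3 were lower without replicate 2 of OxLDL-treated R150X, and 1 was higher without replicate 3 of OxLDL-treated WT. Of 26 immediate-early genes 4 were higher and 3 lower. Egr2 rose by 0.96 in WT and 0.29 in R150X, while Egr1 fell from 36.5 ± 2.01 to 24.3 ± 0.610 CPM in WT and measured 47.2 ± 3.33 and 50.1 ± 1.83 CPM in R150X, so that members of the same zinc finger family had interactions of -0.67 and 0.67. Fos was lower (-0.32) and Nr4a1 higher (0.67). Of 13 alternative activation genes, Mrc1, the mannose receptor, rose more in R150X (0.34) and Klf4 fell in WT and rose in R150X (0.57). Tgfb1 rose less in R150X (-0.27), a call lost without replicate 1 or 2 of untreated WT, replicate 3 of OxLDL-treated WT, replicate 1 of untreated R150X or any 1 OxLDL-treated R150X library, with adjusted p from 0.0511 to 0.119 (edgeR).

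In adhesion and matrix remodelling 13 of 29 genes were lower and 1 higher (median -0.217). Mmp9, the gelatinase B gene, read 118, 114 and 123 CPM in untreated WT and 265, 279 and 291 CPM in untreated R150X libraries, and 38.8, 39.4 and 35.6 CPM and 36.1, 36.3 and 36.8 CPM after OxLDL. The genotypes were apart before treatment and overlapped after it (interaction -1.30, SE 0.0807, adjusted p = 2.03e-09, edgeR). Mmp13, a collagenase, rose slightly in WT and fell in R150X, from 225 ± 5.68 to 151 ± 8.48 CPM (interaction -0.72). The integrin chains Itgax, Itgam, Itgb2 and Itgb5 were lower and Itgb3 was higher (0.40); the higher count was 0 without replicate 1 of untreated WT, replicate 1 of OxLDL-treated WT or replicate 3 of OxLDL-treated R150X, and 2 on leaving out any 1 untreated R150X library.

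**Figure D4:**
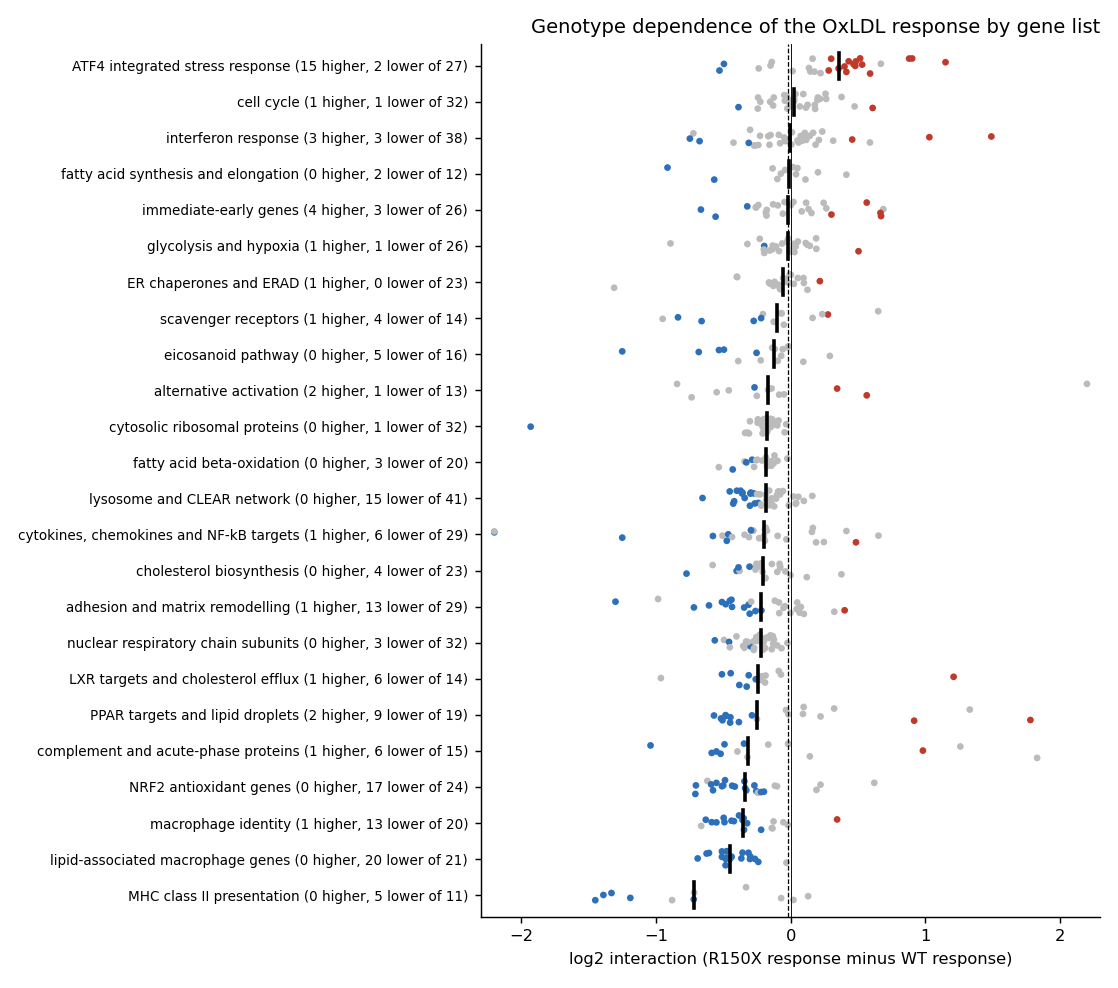
Log2 interaction (x axis) of each tested member of the 24 pathway lists (points, red called higher, blue called lower, grey not called), with the list median (thick bar), 0 (solid line) and the median of all genes tested, -0.017 (dashed line); 3 values past 2.2 in size are drawn at the edge. The ATF4 list lies to the right of the dashed line and the MHC class II, lipid-associated, macrophage identity and NRF2 lists lie farthest to the left.

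Genes of other cell types were present and several of them depended on genotype. Fibroblast and stroma genes were abundant: the 14 summed to 18600 to 18700 CPM in untreated WT, 9110 to 9810 in treated WT, 12900 to 13100 in untreated R150X and 8840 to 9220 in treated R150X libraries. Of these, 9 had a higher interaction and 1, Lum, a lower one (median 0.372). The Lum call, at 1.84 to 3.08 CPM, was lost on leaving out any 1 library other than replicate 1 of untreated WT or replicate 3 of untreated R150X. Col3a1, a fibrillar collagen, read 1691, 1701 and 1715 CPM in untreated WT, 1122, 1122 and 1193 CPM in treated WT, 1184, 1125 and 1139 CPM in untreated R150X and 1069, 1059.6 and 1116 CPM in treated R150X libraries (interaction 0.48, SE 0.0557, adjusted p = 8.96e-06, edgeR). Untreated WT stood alone above the rest. Col1a1, Col1a2, Sparc, Postn and Pdgfrb fell in both genotypes and fell less in R150X.

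Cxcl12, the stromal chemokine that retains blood cells in marrow, did not share that shape. It read 771, 758 and 771 CPM in untreated WT and 769, 785 and 757 CPM in treated WT libraries, which overlapped. In R150X it read 909.7, 908 and 935 CPM untreated and 1414, 1442 and 1455 CPM treated, above every other library (interaction 0.64, SE 0.0525, adjusted p = 1.27e-07, edgeR). Matrix genes also stood among the genes with the highest interactions, including the fibrillin Fbn2 (1.50), the metalloproteinase genes Adam12 (1.48) and Adamts15 (1.58) and the collagen Col8a2 (1.43). Fbn2 and Col8a2 fell in both genotypes, as the summed stroma markers did, Adam12 fell in WT alone, and Adamts15, like Cxcl12, rose in R150X alone. The part of stroma content in these results was not tested.

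Megakaryocyte and platelet genes held the lowest interaction of any named gene and the lowest median of the lists, -1.67, with 6 of 8 lower. Ppbp, the platelet basic protein, read 1.78, 2.00 and 1.61 CPM in untreated WT and 17.5, 15.6 and 18.7 CPM in treated WT libraries. In R150X it read 8.73, 7.27 and 7.31 CPM untreated and 4.83, 5.49 and 4.99 CPM treated, so it rose in WT and fell in R150X (interaction -3.86, SE 0.195, adjusted p = 1.47e-10, edgeR). Itga2b, the platelet integrin chain CD41, did likewise, from 4.66 ± 0.522 to 13.7 ± 1.37 CPM in WT and from 9.37 ± 0.813 to 5.90 ± 0.217 CPM in R150X (interaction -2.22). Pf4, platelet factor 4, fell in R150X alone (-0.77). The levels were low: the 8 genes together made 35.4 to 38.9 CPM in untreated WT, 69.7 to 74.4 in treated WT, 51.6 to 58.0 in untreated R150X and 38.4 to 39.3 in treated R150X libraries, and Gp9 stayed under 2 CPM in each group mean.

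Neutrophil genes summed to 663 to 699 CPM in untreated WT, 247 to 260 in treated WT, 378 to 398 in untreated R150X and 118 to 121 in treated R150X libraries. Of 14 tested, 7 were lower (median -0.651), 4 without replicate 3 of OxLDL-treated R150X and 5 with library size alone. Ngp, a granule protein, fell from 122 ± 4.30 to 35.8 ± 1.17 CPM in WT and from 49.0 ± 1.81 to 8.65 ± 0.497 CPM in R150X (interaction -0.73), and Lcn2, a siderophore-binding granule protein, from 139 ± 5.19 to 10.8 ± 0.285 and from 96.0 ± 5.56 to 3.61 ± 0.260 CPM (interaction -1.04). The fall of Ngp and Lcn2 in R150X was larger on the log2 scale and smaller in CPM. S100a8, a calprotectin subunit, also had a larger log2 fall in R150X (-0.76). R150X libraries were thus lower than WT libraries in each state, unlike for the macrophage lists.

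The remaining cell types were read from short lists. Of 7 dendritic cell genes 1 was lower (Irf8, -0.43), of 7 osteoclast genes 2 (Dcstamp, -1.38, and Atp6v0d2, -0.43), and of 4 adipocyte genes 1 (Fabp4, -0.57). The adipocyte median was 1.2 over 4 genes, and Adipoq, Plin1 and Car3 had interactions of 1.07, 1.33 and 2.51 that did not pass (adjusted p = 0.112, 0.369 and 0.0981, edgeR). They measured 15.8 ± 1.48, 11.8 ± 1.17 and 13.1 ± 0.456 CPM in treated R150X libraries and under 3 CPM in the other group means. DESeq2 and limma-voom each called 1 adipocyte gene higher, and 2 were higher without replicate 2 of OxLDL-treated WT. Of 5 B cell genes, Blnk was lower (-0.55) and Ebf1 higher (0.66). None of 3 T and NK cell genes, 3 mast cell genes and 1 erythroid gene was called by edgeR, DESeq2 or limma-voom. Interactions ran from -1.04 to 0.215 over the T and NK cell genes and from -0.693 to 0.407 over the mast cell genes. An unadjusted p under 0.05 in edgeR was met by 3374 of the 15338 genes tested. Of 1 gene taken from each of these lists, Kit (0.38) and Epor (-0.66) met it and Cd4 (0.22) did not. Summed levels ran from 12.7 to 25.0 CPM for T and NK cells, 11.8 to 22.4 for mast cells and 1.94 to 4.86 for erythroid cells over the 12 libraries, and Gzma, Lep, Hba-a2 and Slc4a1 had no count in any library.

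**Figure D5:**
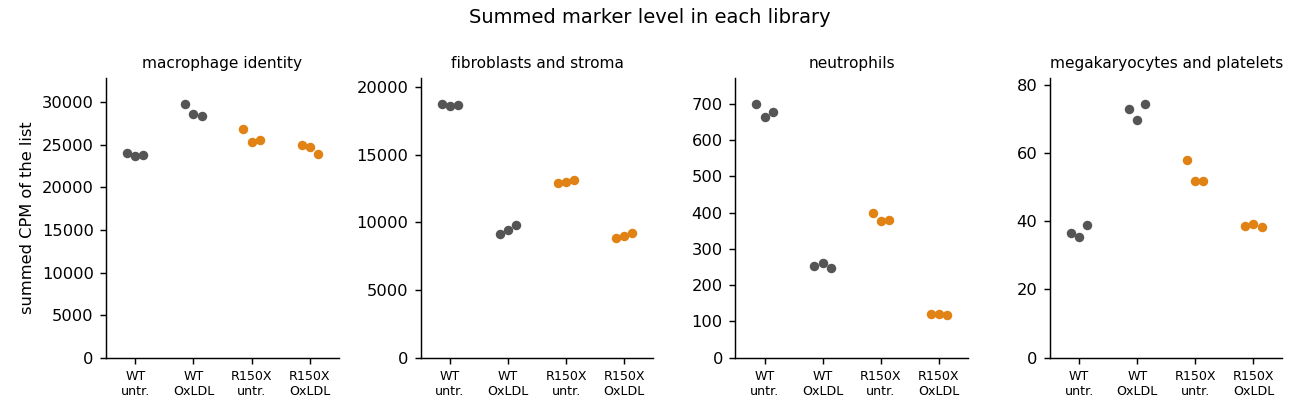
Summed CPM of 4 marker lists (y axes, each from 0) in the 3 libraries of each group, WT in grey and R150X in orange. OxLDL raises the macrophage identity sum in WT and lowers it in R150X, lowers the stroma and neutrophil sums in both genotypes, and moves the megakaryocyte sum up in WT and down in R150X.

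At the extremes of the interaction, several genes were close to the floor in a treated group, and their fitted values are then sensitive to a few counts. Tarm1, a receptor of myeloid cells, read 9.54, 10.1 and 9.93 CPM in untreated WT and 12.3, 13.1 and 11.2 CPM in untreated R150X libraries, and had 12 counts over the treated WT and 1 count over the treated R150X libraries; its call was lost on leaving out any 1 untreated WT library, replicate 1 or 2 of OxLDL-treated WT or replicate 1 or 2 of OxLDL-treated R150X (adjusted p from 0.0523 to 0.241, edgeR). The interaction of Xist was a matter of 95 counts over the untreated and 2 over the treated WT libraries. Mcemp1, a mast cell and macrophage membrane protein (-1.54), Mmp3, stromelysin 1 (-1.41), and Galnt9, a glycosyltransferase gene (-1.42), kept their calls in every leave-one-out fit. Il1f9 (-1.42) lost its call without replicate 3 of untreated WT, replicate 2 or 3 of OxLDL-treated WT or replicate 1 or 2 of OxLDL-treated R150X (adjusted p from 0.0547 to 0.106), and Rasgrp1 (-1.43) on leaving out any 1 WT library or replicate 1 or 2 of OxLDL-treated R150X (0.0539 to 0.136). Rps27a, a ubiquitin and ribosomal fusion gene with many processed copies, varied within groups, as at 94.9, 103 and 311 CPM in treated WT libraries, and lost its call without replicate 3 of that group (adjusted p = 0.0636, edgeR). Its call was also lost with DESeq2 (adjusted p = 0.0822). Tarm1, Rasgrp1, Il1f9 and Xist lost theirs with limma-voom (adjusted p from 0.0625 to 0.141).

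On the higher side, Sez6l2 (1.63), Map3k7cl (1.44) and Abat, GABA transaminase (1.40), kept their calls in every leave-one-out fit. Abat fell from 6.15 ± 0.349 to 2.24 ± 0.538 CPM in WT and measured 5.29 ± 0.604 and 5.08 ± 0.666 CPM in R150X. Atp6v0e2, a proton pump subunit gene, lies on the same chromosome as Gpnmb, from 48537615 to 48541801 on chromosome 6, and separated the genotypes, at 0.745 ± 0.394 and 0.243 ± 0.152 CPM in WT and 20.9 ± 1.85 and 23.4 ± 0.993 CPM in R150X; its call was lost without replicate 2 or 3 of untreated WT or replicate 1 or 2 of OxLDL-treated WT (adjusted p from 0.0533 to 0.17, edgeR). The Atp6v0e2 call was also lost with limma-voom (adjusted p = 0.0857). Epb41l4b rose in R150X alone (1.56), a call lost without replicate 1 of untreated WT, replicate 2 of OxLDL-treated WT or replicate 3 of untreated R150X (adjusted p from 0.0537 to 0.149, edgeR).

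The genes with the smallest adjusted p in each class gave further examples. Alas1, the rate-limiting enzyme of heme synthesis, read 435, 455 and 438 CPM in untreated WT and 545, 525 and 533 CPM in treated WT, and 749, 708 and 716 CPM in untreated R150X and 431, 428 and 413 CPM in treated R150X libraries. It rose in WT and fell in R150X, without overlap between untreated and treated libraries of a genotype (interaction -1.05, SE 0.0597, adjusted p = 7.49e-10, edgeR). Fgr, a Src-family kinase of myeloid cells, fell in R150X alone, from 87.2 ± 1.55 to 54.2 ± 2.29 CPM against 90.7 ± 3.61 and 97.8 ± 5.37 CPM in WT (interaction -0.79). Fam20c, a kinase of secreted proteins (-0.72), and Hgsnat, a lysosomal acetyltransferase of heparan sulfate (-0.60), rose in WT alone. Procr, the endothelial protein C receptor, fell in both genotypes, from 66.9 ± 2.64 to 57.4 ± 1.79 CPM in WT and from 126 ± 2.74 to 56.5 ± 2.30 CPM in R150X (interaction -0.94). Of the 5 genes whose responses were called in neither genotype, Ndufa1, Plcb1 and Fut7 had adjusted p from 0.0334 to 0.0438 (edgeR). Replicate 2 of untreated WT, replicate 1 of OxLDL-treated WT and replicate 1 of OxLDL-treated R150X were among the libraries without which each of these 3 lost its call. Ndufa1 lies on the X chromosome and is also among the respiratory chain genes called lower above.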

How the data were processed

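RNA from 12 libraries of bone marrow-derived macrophages was sequenced, per the labels. The authors deposited a table of raw counts per gene. HISAT2, featureCounts, FastQC and DESeq2 and the builds mm10 and GRCm38 are named in the submitters' processing notes; tool versions, gene annotation and whether counting used strand are not given in the sources used here. Gene names and positions came from GENCODE vM21 (54495 of 54532 IDs matched, and the 37 others held 0.00357% of counts), and promoters from RefSeq on GRCm38.p6.

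One edgeR 4.0.16 quasi-likelihood model (R 4.3.3) had a coefficient for each of the 4 groups, with TMM scaling (factors 0.969 to 1.05) and edgeR's filter by group, which kept 15338 genes. Calls were made at an adjusted p under 0.05 (Benjamini-Hochberg, across the whole table), and the SE is the log2 value divided by the root of F. CPM values use the TMM-scaled library size. DESeq2 1.42.0, limma-voom (limma 3.58.1), other scalings and filters, a replicate block and leaving out each library were alternatives. Another dropped chromosomes X and Y after the fit, before the adjustment of p-values.

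The gene lists and comparisons were chosen with earlier results of these data known. Named genes were Gpnmb, the 12 highest and 12 lowest called interactions among genes with at least 5 CPM in their highest group, the 4 smallest adjusted p in each response class, and up to 3 called members of each list by adjusted p (or its most abundant member); other list members named were chosen after their values were seen, and a few genes that meet the rule are not reported here. Sequencing reads carry counting error. The floor of 3 counts marks a level of detection alone, and counting error enters the SE and p-values through the edgeR fit.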

Additional observations from a re-analysis of the deposited data

Results flagged for a closer look

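Responses to OxLDL that were called in opposite directions in the genotypes were picked out, with the difference itself tested by the interaction term in edgeR's quasi-likelihood test. There were 100 such genes of the 1276 called, and 11 of them meet the rule for named genes.

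OxLDL raised the gene in WT and lowered it in R150X for Ppbp (log2 interaction -3.86), Itga2b (-2.22), Alas1 (-1.05), Mmp13 (-0.72), Gsr (-0.70) and C1qb (-0.59). It lowered the gene in WT and raised it in R150X for Scd1 (1.21), Trib3 (1.15), Asns (0.88), Ebf1 (0.66) and Klf4 (0.57). The lowered group spans platelet genes, heme synthesis, a collagenase, glutathione recycling and complement, and the raised group holds a fatty acid desaturase, targets of ATF4 and transcription factors.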

How the results depend on the processing

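The first settings were DESeq2, limma-voom, RLE size factors, no filter and a filter of 5 CPM in 3 libraries. A further one left chromosomes X and Y out of the adjustment of p-values alone. These called 1231 to 1512 genes against 1276, and 37.3% to 43.0% of them were higher. Library size alone called 1320 genes, with 878 higher and 442 lower in place of 480 and 796, since it moved the median of all genes by 0.0915 on the log2 scale. Leaving out 1 library gave 893 to 1392 calls, 326 to 550 higher and 567 to 879 lower; the fewest were called without replicate 2 of untreated WT. No called gene reversed under these settings. Replicate numbers were not taken as pairs, since only 2 of 18 same-number pairs correlated above 0.1, although 9 of 12 libraries correlated best with their own number, a hint of pairing from the data and not from the design. With the replicate number as a block, 1491 genes were called, 580 higher and 911 lower.

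Depth limits the genes near 3 counts, such as Tarm1 in OxLDL-treated R150X cells. The medians of the ER chaperone, fatty acid synthesis, glycolysis, immediate-early, interferon and osteoclast lists changed sign with library size alone. So did that of the list of Y-linked genes and Xist. Differences of genotype cannot be told apart from sex composition or linked DBA/2 sequence.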
